A study of Mus musculus with 4 samples.

Results

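The 34 genes described here encode the contractile apparatus of smooth muscle, the cytoskeleton that carries its force, and the factors that control both. They were chosen by name, from Acta2 and Myh11 to Myocd and Srf, with earlier results of these data known. All 34 had a probe on the arrays and all 34 could be tested, out of 22497 genes tested and 37074 gene names. Each gene was read from its brightest probe among those well above background on at least 2 arrays. Of the 34 genes, 33 were well above background on all 4 arrays, and Pln was above it on 2.

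The RNA came from abdominal aorta of male mice aged 12 weeks, sampled 4 weeks after application of CaPO4, a salt used to injure the wall and provoke aneurysm. One group was labelled wild type (replicates 1 and 2, titled W2 and W3) and the other SR-A1-/- (replicates 1 and 2, titled K4 and K5), with 2 one-colour arrays in each. SR-A1 is the scavenger receptor of macrophages encoded by Msr1. Both groups had received CaPO4, and no uninjured aorta was analysed here. The labels name neither the allele nor its background, and it is not given that the arrays come from different animals. The p-values therefore measure no more than the spread between these 4 samples.

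In smooth muscle, force is made where myosin filaments pull on actin filaments. Calcium switches this on through myosin light chain kinase, and myosin phosphatase switches it off. Dense bodies, intermediate filaments and adhesion plaques tie the filaments to each other and to the matrix. Many of the genes share a regulator, serum response factor, which binds the CArG box and is driven by its coactivator myocardin. In the aortic wall these genes mark the contractile state of the medial smooth muscle cell, which is known to be lost in part in injured and aneurysmal vessels.

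A level here is the log2 processed signal of a gene relative to the 75th percentile of its array. A difference is the mean level of the arrays labelled knockout minus that of the arrays labelled wild type, given ± the standard error of limma with 2 arrays per group. The 75th percentile was between 132 and 245, and 57.6% to 62.6% of 56605 probes were well above background. The number of arrays limits the precision. Msr1 signal was not lost under the knockout label. Its pair of probes was above background on each knockout-labelled array, at -2.09 to -1.26, and on wild type replicate 2, at -2.12 and -2.10. On wild type replicate 1 both were not above background. With the allele not named, it is not known whether it leaves RNA that these probes read, so Msr1 could not check the labels. The groups are therefore called by their labels throughout. In RNA of whole tissue, fewer smooth muscle cells and less RNA per cell cannot be told apart.

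To show the control sequence that these genes are known for, RefSeq promoters (assembly GRCm38.p6) were searched for the strict CArG box in the 250 bases before the gene's start. The motif class is its own reverse complement, so both strands are read at once. Of the 34 genes, 30 were matched by symbol, and 5 of the 30 (16.7%) held a CArG box there, against 439 of all 27025 genes (1.62%). By promoter, it was 5 of 36 for the matched genes and 482 of all 32851 (1.47%). Actg2, Myh11, Myocd and Tagln were not matched. Acta2 and Cnn1 were matched and held no strict box in the window. Looser boxes and other regions were not searched. The windows around the boxes of Cnn2, Myl6, Myl9, Srf and Vcl are printed from 5′ to 3′ on the strand of the gene, with the box in capitals. Srf held a pair of boxes.
Cnn2, chr10:79988514-79988583, plus strand: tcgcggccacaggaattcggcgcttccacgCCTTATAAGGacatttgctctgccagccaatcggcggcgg
Myl6, chr10:128493020-128493089, minus strand: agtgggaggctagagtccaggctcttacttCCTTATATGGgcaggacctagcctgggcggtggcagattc
Myl9, chr2:156775273-156775342, plus strand: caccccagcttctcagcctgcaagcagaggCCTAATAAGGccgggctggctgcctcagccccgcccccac
Srf, chr17:46556185-46556274, minus strand: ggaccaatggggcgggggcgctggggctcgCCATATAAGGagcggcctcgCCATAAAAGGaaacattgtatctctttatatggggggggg
Vcl, chr14:20929148-20929210, plus strand: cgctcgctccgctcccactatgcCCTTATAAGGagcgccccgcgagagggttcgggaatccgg
The first base of the box lay 56 bases before the start in Cnn2, 50 in Myl6, 161 in Myl9 and 227 in Vcl. In Srf the boxes began 82 and 62 bases before it. A match of letters is a description, and no binding was measured.

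The contractile genes were lower as a group on the arrays labelled knockout, by a modest amount and with no single gene past the threshold. Of the 34 genes, 33 had a negative difference, and the median difference was -0.49, against -0.01 over all genes tested. In 25 of the 34 both arrays labelled knockout lay below both arrays labelled wild type, a separation seen in 13.7% of all genes. Pln alone lay above in both, a separation seen in 16.1% of all genes, but its probe was not well above background on either wild-type-labelled array. In the other 8 the groups overlapped. Among the 33 genes above background on all arrays, the largest differences were those of the intermediate filament gene Synm, at -3.49 ± 0.34, and of the tropomyosin gene Tpm1, at -1.18 ± 0.47.

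None of the 34 passed an adjusted p of 0.05 in limma, with Benjamini-Hochberg adjustment over all genes, and neither did any other gene (0%). At an unadjusted p under 0.05, Synm and Myocd were lower, where 2.45% of all genes were, and Pln was higher, where 3.84% were. Pln passed the filter on dim probes through the knockout-labelled arrays only, so its p and its direction support nothing here. Groups that did not overlap together with a difference of at least 2-fold were found in 2 genes on the low side, Synm and Tpm1, against 2.44% of all genes. Without wild type replicate 1 the difference of Tpm1 was -0.66, which is under 2-fold. On the high side, where 3.96% of all genes were, the measured signal of Pln passed 2-fold but its lower bound did not. Normexp background correction called Synm in limma, at -3.07 with an adjusted p of 0.0038, and the count of genes above in both then went from 1 to 0.

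**Figure D1:**
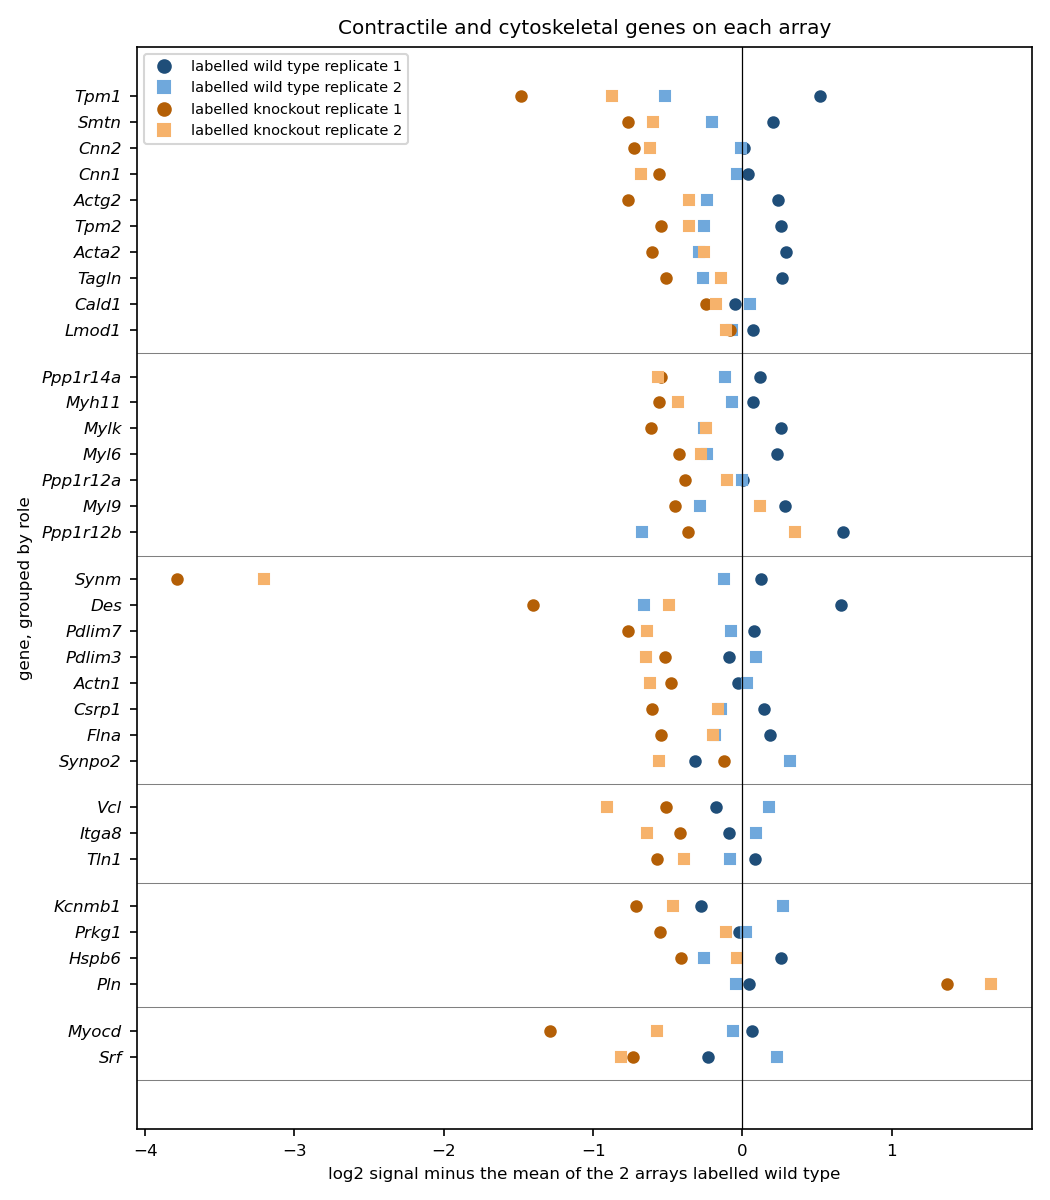
Level of each of the 34 genes on each array (x axis, log2 signal relative to the array's 75th percentile, minus the mean of the 2 arrays labelled wild type), with genes grouped by role on the y axis. Points are single arrays. The orange points of the arrays labelled knockout lie to the left of the blue points in 25 genes, and only Pln has them to the right.

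The order of the arrays was not the same as the order of the groups alone. The array labelled wild type replicate 1 was the highest in 24 of the 34 genes and wild type replicate 2 in 9. Knockout replicate 1 was the lowest in 23 and knockout replicate 2 in 9. Averaged over the 34 genes, the level was 5.16 and 4.93 on the wild-type-labelled arrays against 4.41 and 4.63 on the knockout-labelled arrays. The 2 arrays labelled wild type thus stood above both others, with gaps between replicates nearly as wide as the gap from wild type replicate 2 to knockout replicate 2.

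Pair by pair, the median of the 34 genes was lower in every comparison of a knockout with a wild type array. It was -0.67 for knockout replicate 1 and -0.53 for knockout replicate 2 against wild type replicate 1. Against wild type replicate 2 it was -0.49 and -0.27. The same median over all genes was between -0.03 and 0.03 in each of the 4 pairs. Within a label, knockout replicate 2 stood 0.22 above replicate 1, and wild type replicate 2 stood at -0.16 against replicate 1.

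The arrays also fell into 2 levels of signal, with 75th percentiles of 132 (wild type replicate 1) and 133 (knockout replicate 2) and of 220 (wild type replicate 2) and 245 (knockout replicate 1). Each level held 1 array of each label. Within the low level the median of the 34 genes was -0.53, and within the high level it was -0.49. In 32 genes the knockout array was lower in both levels, as it was in 31% of all genes, and in Pln it was higher in both, as in 28.9%. With signal level as a block, 14 of the 34 genes had an unadjusted p under 0.05 in limma, against 12.5% of all genes in that fit, and none passed the adjusted p.

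**Figure D2:**
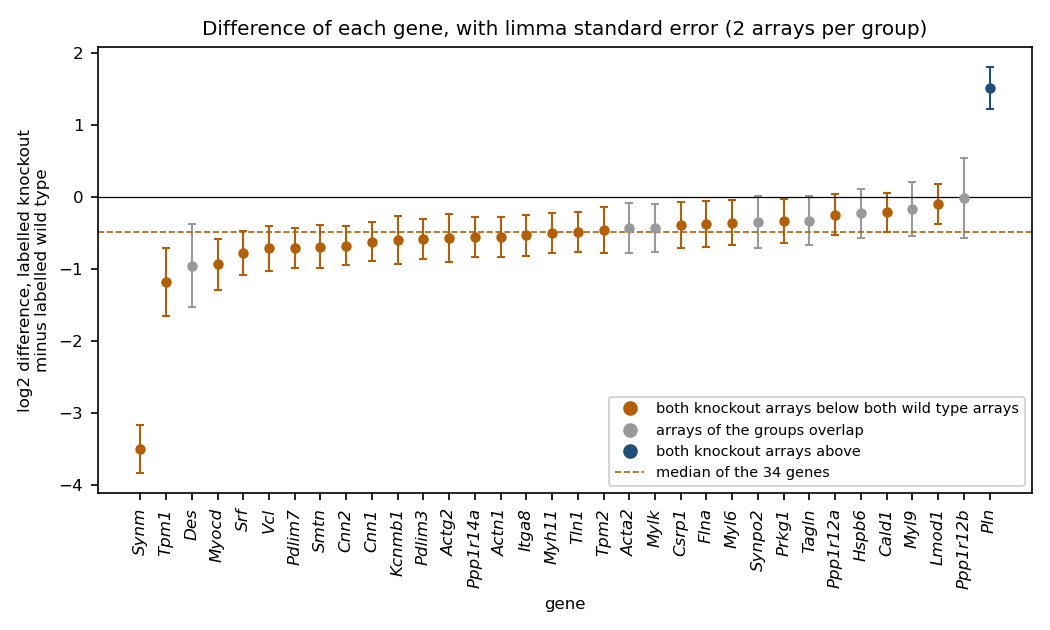
Difference of each of the 34 genes (y axis, log2, labelled knockout minus labelled wild type), sorted along the x axis, with bars of 1 limma standard error. All but Pln lie below 0, most between 0 and -1, and the dashed line is the median of the 34, at -0.49. The point of Pln is its measured difference, with wild type signals not above background.

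Thin filament genes were lower on the arrays labelled knockout. The 10 genes of this role all had a negative difference, and 8 of the 10 were below in both arrays labelled knockout, against 13.7% of all genes. The median was -0.51. The median moved to -0.29 without wild type replicate 1. Acta2, the smooth muscle α-actin of the arterial media, read 9.47 and 8.88 on the wild-type-labelled arrays against 8.57 and 8.92 on the knockout-labelled arrays. Knockout replicate 1 was the lowest and wild type replicate 1 the highest, while the other two arrays read almost the same, so the groups overlapped. The difference was -0.43 ± 0.35, and it was -0.14 without wild type replicate 1.

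Actg2, the γ-actin of smooth muscle, read 5.08 and 4.61 against 4.07 and 4.49, a difference of -0.56 ± 0.34 with groups that lay close but apart. It was -0.33 without wild type replicate 1. Actins have near-identical coding sequences, so the split of signal between Acta2, Actg2 and other actins is uncertain. Tagln, which encodes the actin-binding protein transgelin, read 9.47 and 8.93 against 8.69 and 9.06. As for Acta2, knockout replicate 2 lay within the range of the arrays labelled wild type. Its difference of -0.33 ± 0.34 was -0.06 without wild type replicate 1.

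The calponins bind actin and restrain myosin, and their replicates lay close together. Cnn1 read 7.83 and 7.76 on the wild-type-labelled arrays against 7.24 and 7.12 on the knockout-labelled arrays, a difference of -0.62 ± 0.27 with an adjusted p of 0.864 in limma. Cnn2 read 3.83 and 3.81 against 3.09 and 3.20, at -0.67 ± 0.27 and an adjusted p of 0.811. The gap between replicates was 0.07 (wild type) and 0.12 (knockout) in Cnn1 and 0.02 and 0.11 in Cnn2, and the groups did not overlap in either. Over the 17 alternatives of processing, the difference stayed between -0.68 and -0.53 for Cnn1 and between -0.73 and -0.61 for Cnn2.

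Smtn, whose product smoothelin is found in contractile smooth muscle, read 7.28 and 6.87 against 6.31 and 6.48, a difference of -0.68 ± 0.30. Both arrays labelled knockout lay below both others. Tpm1, which encodes an α-tropomyosin that lies along the actin filament, read 6.18 and 5.14 against 4.18 and 4.79. Its replicates differed by 1.04 in the group labelled wild type and by 0.61 in the other, and the groups still did not overlap. The difference was -1.18 ± 0.47 with an adjusted p of 0.805 in limma, and -0.51 with the mean of the gene's probes.

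The remaining thin filament genes were closer to 0. Tpm2, a β-tropomyosin, differed by -0.45 ± 0.32, or -0.19 without wild type replicate 1, and Cald1, which encodes caldesmon, an inhibitor of the actin-activated myosin ATPase, by -0.21 ± 0.27, or -0.11 with quantile normalisation. Lmod1, which encodes the actin nucleator leiomodin, read -0.02 and -0.15 against -0.17 and -0.20. The groups were barely apart, and the difference of -0.10 ± 0.27 was smaller than its error and became -0.03 without wild type replicate 1.

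The myosin genes were also lower on the arrays labelled knockout. The 7 genes for myosin, its kinase and its phosphatase all had a negative difference. In 4 of the 7 both arrays labelled knockout were below, against 13.7% of all genes. The median was -0.35. That median moved to -0.13 with quantile normalisation and to -0.58 without wild type replicate 2. Myh11, the smooth muscle myosin heavy chain, read 6.25 and 6.11 on the wild-type-labelled arrays against 5.62 and 5.75 on the knockout-labelled arrays. Replicates were close, the groups did not overlap, and the difference was -0.50 ± 0.28 with an adjusted p of 0.985 in limma.

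Myl9, the regulatory light chain that is phosphorylated when smooth muscle contracts, read 9.28 and 8.71 against 8.54 and 9.12. One array of each label was high and the other low, so the groups overlapped. The difference was -0.17 ± 0.37, and its sign turned to 0.12 without wild type replicate 1, to 0.12 without knockout replicate 1 and to 0.01 in the values the authors deposited. Myl6, the essential light chain, differed by -0.35 ± 0.31, and by -0.12 without wild type replicate 1.

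Mylk, the kinase of the regulatory light chain, read 5.97 and 5.46 against 5.10 and 5.47. Knockout replicate 2 was level with wild type replicate 2, and the groups overlapped. The difference of -0.43 ± 0.34 was -0.17 without wild type replicate 1. On the phosphatase side, the targeting subunit Ppp1r12a differed by -0.24 ± 0.28 (-0.09 with quantile normalisation) and the inhibitor Ppp1r14a, also called CPI-17, by -0.55 ± 0.28, both with groups that did not overlap. The other targeting subunit, Ppp1r12b, was at -0.005 ± 0.56 and turned to 0.67 without wild type replicate 1.

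Intermediate filament, dense body and cross-linking genes held the widest range. All 8 were negative, with a median of -0.57. Of the 8, 6 were below in both arrays labelled knockout, against 13.7% of all genes. Synm encodes synemin, an intermediate filament protein that joins desmin filaments to adhesion and dystrophin complexes. Its brightest probe read 3.52 and 3.27 on the wild-type-labelled arrays against -0.39 and 0.19 on the knockout-labelled arrays. The gap between replicates was 0.25 in the group labelled wild type and 0.58 in the other, and the groups were far apart. The signal was 11.3-fold lower, with a difference of -3.49 ± 0.34 and an adjusted p of 0.128 in limma.

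That difference was seen at one of the 2 Synm probes. The brightest probe starts at base 5219 of NM_201639 and lies at chr7:74877634-74877693 (mm9, minus strand). The other starts at base 815 of NM_183312, lies at chr7:74903754-74903813, and is listed for 3 RefSeq transcripts. It read 0.74 and -0.23 on the wild-type-labelled arrays against 0.03 and 0.75 on the knockout-labelled arrays, all above background. Its groups overlapped, and its difference was 0.13 ± 0.47. With the mean of a gene's probes in place of the brightest, Synm differed by -1.68. Without wild type replicate 1 the gene passed the adjusted p in limma, at -3.37 with an adjusted p of 0.0120, and without wild type replicate 2 at -3.62 with 0.0082. The lone array was then taken to vary like the other group.

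Des, which encodes desmin, the main muscle intermediate filament protein, read 2.59 and 1.27 against 0.52 and 1.44. Wild type replicate 1 stood high and knockout replicate 1 low, with the other two in between and overlapping. The difference of -0.95 ± 0.58 was -0.29 without wild type replicate 1 and -1.61 without wild type replicate 2. The Z-disc and dense body genes were steadier. Pdlim7, a PDZ and LIM protein of actin bundles, read 5.97 and 5.81 against 5.12 and 5.25, a difference of -0.70 ± 0.28 with no overlap and an adjusted p of 0.802 in limma. Pdlim3 differed by -0.58 ± 0.28 and Actn1, the cross-linker α-actinin, by -0.55 ± 0.28, also with no overlap.

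Csrp1, a LIM protein of smooth muscle, and Flna, the actin cross-linker filamin, were at -0.39 ± 0.32 and -0.37 ± 0.32. In both, knockout replicate 2 lay just under wild type replicate 2. Csrp1 was at -0.16 without knockout replicate 1 and Flna at -0.19 without wild type replicate 1. Synpo2, which encodes the actin-bundling protein myopodin, was at -0.34 ± 0.37, its groups overlapped, and it was at -0.03 without wild type replicate 2.

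The 3 adhesion genes were all below in both arrays labelled knockout, against 13.7% of all genes. Vcl, whose product vinculin links talin to actin, read 4.76 and 5.11 on the wild-type-labelled arrays against 4.42 and 4.03 on the knockout-labelled arrays, a difference of -0.71 ± 0.32. Itga8, the integrin α8 chain of smooth muscle, differed by -0.53 ± 0.29. Tln1, which encodes talin, the link from integrins to actin, differed by -0.48 ± 0.28. Their median was -0.53 and lay between -0.64 and -0.42 over the alternatives.

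Of the 4 genes of calcium, potassium and cyclic nucleotide response, 3 had a negative difference, and the other, Pln, rests on dim wild type signals. Pln encodes phospholamban, which inhibits the calcium pump of the sarcoplasmic reticulum. It read -5.14 and -5.23 on the wild-type-labelled arrays, not well above background on either, against -3.82 and -3.52 on the knockout-labelled arrays. Both arrays labelled knockout were higher, at least 1.94-fold higher by the lower bound. That bound sets the mean of the bright group against the lowest signal that counted as above background on each array of the dim group. The adjusted p was 0.368 in limma. The measured difference, 1.52 ± 0.29, rests on wild type signals not above background and became 0.12 with normexp background correction.

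Kcnmb1, the β1 subunit of the large-conductance potassium channel, differed by -0.59 ± 0.33 with no overlap, and by -0.31 without wild type replicate 2. Prkg1, the cyclic GMP dependent kinase that relaxes smooth muscle, differed by -0.33 ± 0.31, and by -0.11 without knockout replicate 1. Hspb6, a small heat shock protein that this class of kinases phosphorylates, was at -0.22 ± 0.34 with overlap, and its sign turned to 0.03 without wild type replicate 1.

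Both transcription factor genes were lower. Myocd, the gene of myocardin, read 2.37 and 2.25 on the wild-type-labelled arrays against 1.02 and 1.73 on the knockout-labelled arrays. Both arrays labelled knockout were below, knockout replicate 1 by more. The difference was -0.93 ± 0.36, with an unadjusted p of 0.048 and an adjusted p of 0.785 in limma, and it was -0.58 without knockout replicate 1. Srf read 2.46 and 2.92 against 1.96 and 1.88, with no overlap and a difference of -0.77 ± 0.31 and an adjusted p of 0.805. The 5 genes whose promoter window held a CArG box were at -0.67 for Cnn2, -0.35 for Myl6, -0.17 for Myl9, -0.77 for Srf and -0.71 for Vcl.

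Different probes of a gene read the same RNA at other places. The 34 genes had 79 probes, of which 76 were tested. Of these 76, 69 had a negative difference, against 50% of all tested probes, and 49 lay below in both arrays labelled knockout, against 13.8%. One, of Pln, was above in both. The Pln probe and 1 probe of Des, among those below, were above background in 1 group only. Of 24 genes with several tested probes, 19 had all probes on the same side of 0 and 5 did not. Those 5 were Synm, Mylk, Acta2, Ppp1r12b and Cald1, and only in Synm were the probes also apart by at least 1.

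Acta2 was read by 4 probes. The brightest starts at base 1278 of NM_007392, and the probes at bases 335 and 1641 differed by -0.81 ± 0.36 and -0.62 ± 0.35, both with groups that did not overlap. The fourth, from the cDNA AK033744, was at 0.02 ± 0.89. Thus 2 of the 4 probes separated the groups where the brightest did not. In Myh11 the 4 probes differed by -0.50 to -0.36. In Tpm1 the other 3 probes, drawn from other transcripts of the gene, were at -0.51 ± 0.30, -0.28 ± 0.33 and -0.06 ± 0.29, all closer to 0 than the brightest. In Cnn1 the second probe was at -0.52 ± 0.27 and the groups did not overlap. The second probe of Des, at -3.89 and -4.34 on the wild-type-labelled arrays, was not well above background on either of the others and gives only a bound, at least 1.57-fold lower. The other 2 probes of Pdlim7 were at -1.10 ± 0.53 and -1.06 ± 0.69.

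The probes that carry these comparisons within a gene are printed below as on the array, from 5′ to 3′, with their place in the transcript and in mm9. No part is in capitals. Those of Acta2 and Cnn1 and the Myh11 probe at base 4252 span more of the genome than their 60 bases, so they lie across a splice junction.
Acta2, NM_007392 from base 335, chr19:34322995-34326249, minus strand: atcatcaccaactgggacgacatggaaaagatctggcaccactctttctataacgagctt
Cnn1, NM_009922 from base 486, chr9:21909945-21910166, plus strand: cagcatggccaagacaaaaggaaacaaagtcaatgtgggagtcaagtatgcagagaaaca
Myh11, NM_001161775 from base 4252, chr16:14207835-14208094, minus strand: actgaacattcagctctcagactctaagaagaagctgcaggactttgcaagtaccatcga
Myh11, NM_001161775 from base 5559, chr16:14202190-14202249, minus strand: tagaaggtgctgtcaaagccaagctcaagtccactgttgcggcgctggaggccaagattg
Synm, NM_183312 from base 815, chr7:74903754-74903813, minus strand: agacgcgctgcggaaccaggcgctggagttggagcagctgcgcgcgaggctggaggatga
Tpm1, NM_001164248 from base 785, chr9:66878844-66878903, minus strand: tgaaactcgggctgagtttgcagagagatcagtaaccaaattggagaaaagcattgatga
The Tpm1 sequence is the brightest probe of its gene and the Synm sequence is the one that did not separate the groups.

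**Figure D3:**
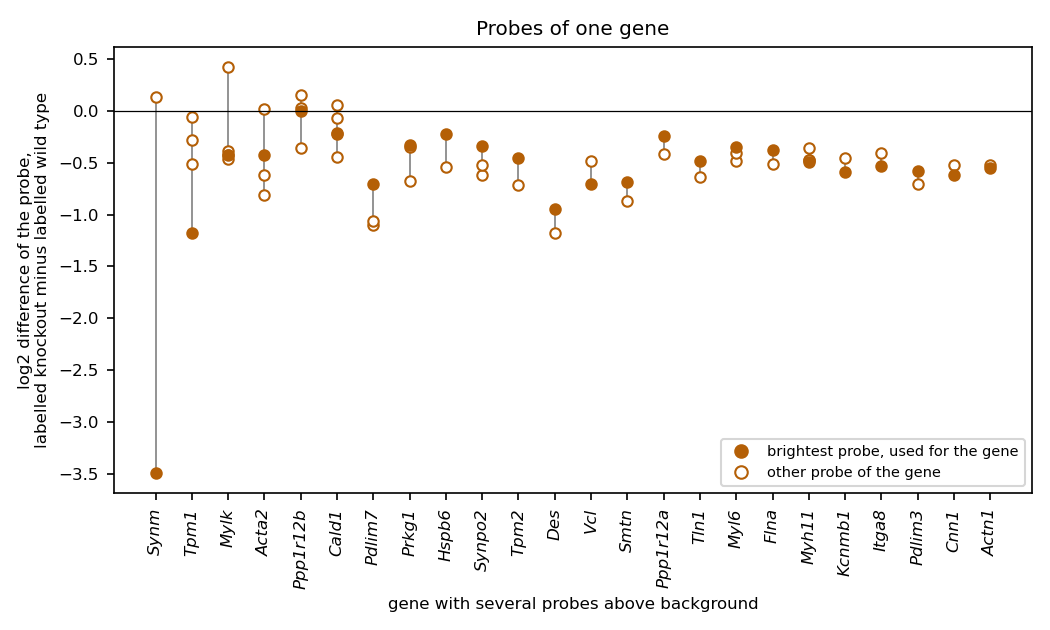
Difference of each tested probe (y axis, log2, labelled knockout minus labelled wild type) of the 24 genes with several probes, ordered along the x axis by the distance between probes. Filled points are the brightest probe and open points the others, and the open point of Des rests on knockout signals not above background. Synm has probes at -3.49 and 0.13, while the 4 probes of Myh11 lie between -0.50 and -0.36.

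Markers of other cell types also differed between the arrays. Skeletal muscle markers averaged 4.50 and 2.95 on the wild-type-labelled arrays against 2.25 and 3.08 on the knockout-labelled arrays, and all 22 were above background on all 4 arrays. Wild type replicate 1 was the highest in 18 of the 22 and knockout replicate 1 the lowest in 17. Their median difference was -1.76, and -0.86 without wild type replicate 1. Below in both arrays labelled knockout were 13 of 22, against 13.7% of all genes, and above were 2, against 16.1%. Those 2 were Mb, the gene of myoglobin, at 2.89 ± 0.29 and Myh1, a fast myosin heavy chain, at 3.63 ± 0.74. No skeletal marker passed the adjusted p.

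Of the 34 genes, 9 were listed from textbook knowledge as also made in striated muscle (Des, Synm, Synpo2, Tpm1, Tpm2, Pln, Hspb6, Ppp1r12b and Pdlim3). Genes among the other 25 may be made there too. These 9 averaged 3.27 and 2.79 on the wild-type-labelled arrays against 2.22 and 2.57 on the knockout-labelled arrays, highest and lowest on the same arrays as the skeletal markers. Their median difference was -0.45, and 4 of the 9 were below in both arrays labelled knockout, against 13.7% of all genes. That median was -0.29 without wild type replicate 1, with 3 of the 9 positive, and -0.68 without wild type replicate 2. The other 25 averaged 5.84 and 5.70 against 5.19 and 5.37, so they too were highest on wild type replicate 1 and lowest on knockout replicate 1. All 25 had a negative difference, with a median of -0.50, and 21 of the 25 were below in both. The median gap between the arrays labelled wild type was 0.52 in the 9 and 0.23 in the 25, against 0.43 over all genes. The part of skeletal muscle RNA in the difference of the 9 was not tested.

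Macrophage markers ran the other way. They averaged 1.78 and 2.56 on the wild-type-labelled arrays against 3.44 and 3.08 on the knockout-labelled arrays, with all 13 tested above background on all 4 arrays. Their median difference was 1.25. Above in both arrays labelled knockout were 8 of the 13, against 16.1% of all genes, and 1 was below, against 13.7%. Knockout replicate 1, the lowest array in most contractile genes, was the highest in 8 of the 13. T cell markers averaged -1.94 and -2.19 against -1.47 and -1.22, with 5 of 9 above in both, and Cd8a was not tested. Whether the share of these cells in the tissue enters the lower contractile signal was not tested.

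The other lists did not separate the labels in the same way. Over all genes, 16.1% were above in both arrays labelled knockout and 13.7% below. Adventitial fibroblast markers averaged 6.21 and 5.40 against 5.98 and 6.26, with 1 of 12 above in both and 0 below. Endothelial markers averaged 2.64 and 2.16 against 2.74 and 2.50, with 4 of 12 above in both and 1 below. Pericyte markers averaged 3.40 and 3.38 against 3.44 and 3.41, with 3 of 8 above in both and 2 below. Their differences ran from -1.20 in Rgs5 to 0.99, with 3 negative and 5 positive, so the flat average hides opposite shifts. Schwann cell markers averaged 1.72 and 1.30 against 1.75 and 1.47. White adipocyte markers averaged 3.66 and 4.47 against 4.52 and -0.47, so that knockout replicate 2 lay far below the others. In 9 of the 10 adipocyte markers the groups overlapped.

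**Figure D4:**
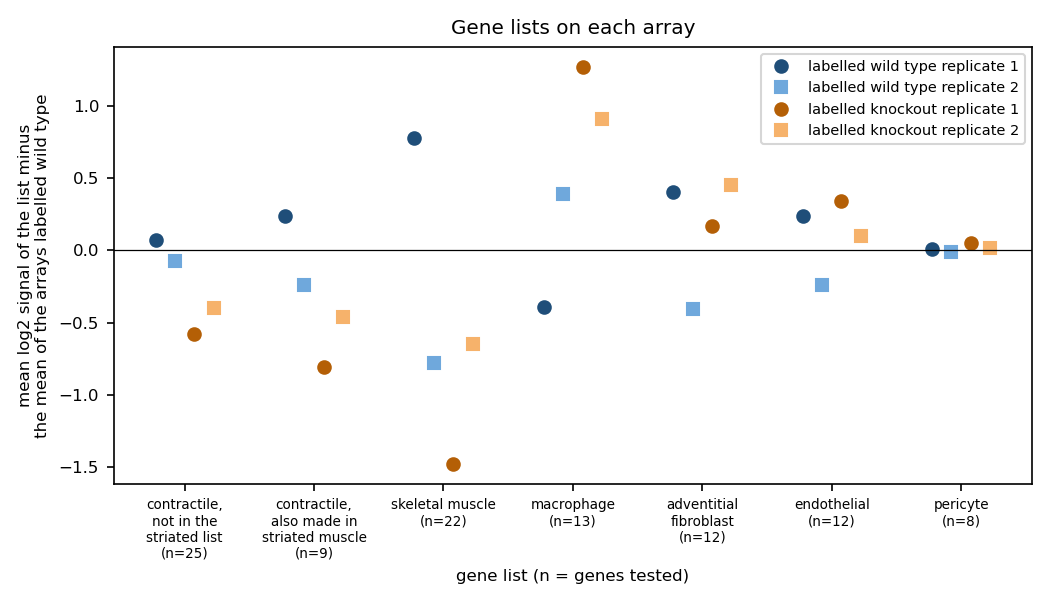
Mean level of each gene list on each array (y axis, log2 signal, minus the mean of the 2 arrays labelled wild type), with the lists along the x axis. Both contractile lists and the skeletal list lie lower on knockout replicate 1 than on any other array, and the macrophage list lies highest there. The mean of the pericyte list stays near 0 on all 4, though its genes differed in direction.

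Genes that work with the 34 were described from 4 further lists. For comparison, 13.7% of all genes were below in both arrays labelled knockout and 16.1% above. The rest of the contractile apparatus, 52 genes mostly of actin, myosin and adhesion, had a median difference of -0.20, with 21 of 52 below in both arrays labelled knockout and 3 above. At an unadjusted p under 0.05 there were 5 lower and 2 higher, where 2.45% and 3.84% of all genes were. With quantile normalisation the median was -0.10. Fblim1, which encodes the filamin-binding protein migfilin, read 6.51 and 6.46 on the wild-type-labelled arrays against 4.76 and 4.51 on the knockout-labelled arrays, a difference of -1.85 ± 0.28. Itga7, an integrin chain of muscle that binds laminin, read 5.08 and 5.05 against 4.13 and 4.06, at -0.97 ± 0.27. Replicates were close in both and the groups well apart.

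Smooth muscle calcium, channel and receptor genes were split. Of 29 tested, 16 were below in both arrays labelled knockout and 6 above, with a median of -0.38, and 6 were lower and 2 higher at an unadjusted p under 0.05, against the same 2.45% and 3.84%. With normexp 11 were below in both and the median was -0.20. Rgs5, a regulator of G protein signalling in mural cells, read 6.19 and 6.02 against 4.80 and 5.01, at -1.20 ± 0.28. Adra1a, an α1-adrenergic receptor, read -3.30 and -2.71 against -4.32 and -5.15, at -1.72 ± 0.42, and was above background on 1 of the 2 arrays labelled knockout. Both genes were below in both arrays labelled knockout.

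Smooth muscle transcriptional regulators were even, with 5 of 21 below in both, 5 above and a median of -0.09. Foxs1, a forkhead factor of perivascular cells, read 2.09 and 2.55 against 0.40 and 0.50, at -1.87 ± 0.31. Heyl, a target of Notch signalling in mural cells, read 2.41 and 2.60 against 1.81 and 1.36, at -0.92 ± 0.31. Both were lower on both arrays labelled knockout.

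Genes known to be switched on when smooth muscle cells leave the contractile state had no common direction. Of 20 tested, 2 were below in both and 3 above, and the median was -0.002. That median ran from -0.17 without knockout replicate 2 to 0.59 without knockout replicate 1. Comp, a matrix protein, read 3.52 and 3.47 against 4.49 and 6.05, at 1.77 ± 0.57, with both arrays labelled knockout higher. Myh10, a non-muscle myosin heavy chain that is also in the first of these lists, read 4.73 and 5.46 against 4.17 and 3.51, at -1.25 ± 0.41, with both lower. No gene of these 4 lists passed the adjusted p in limma.

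**Figure D5:**
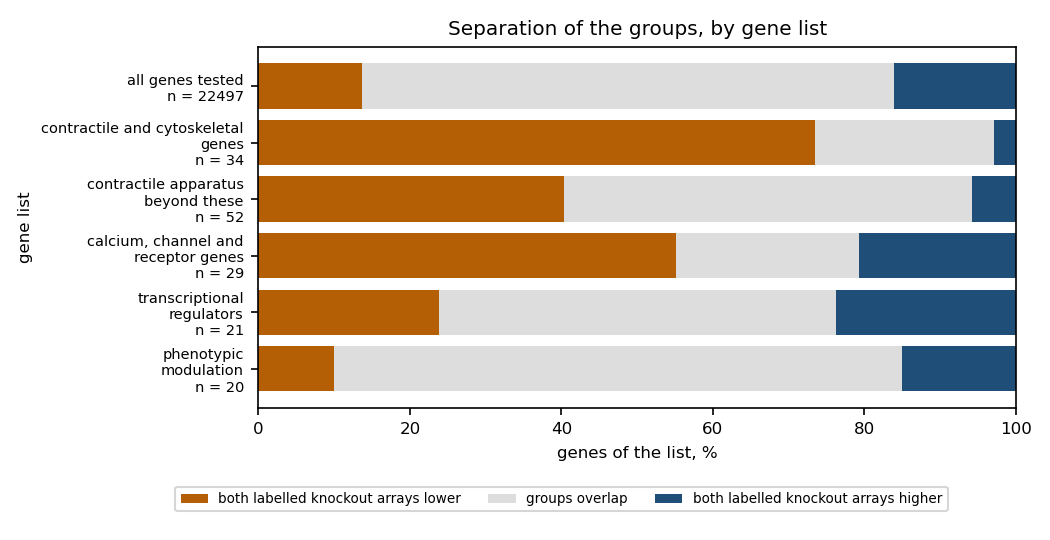
Share of the genes of each list (x axis, %) whose 2 arrays labelled knockout both lay below, overlapped with or both lay above the 2 arrays labelled wild type, for all genes tested, the 34 contractile and cytoskeletal genes and 4 further lists (y axis, with the number of genes). Both lay below in 25 of the 34, 21 of 52, 16 of 29, 5 of 21 and 2 of 20, against 13.7% of all genes.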

How the data were processed

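RNA was measured on 4 one-colour Agilent arrays of 62976 spots, 2 for each label. Per the file headers, the signal used was the processed intensity of Agilent Feature Extraction. The headers give version 12.0.3.1 for the placement of the spot grid, while the submitters' processing notes name version 10.7 and limma. The mean spot signal and local background, used for normexp, are, per the file headers, unprocessed intensity values. The flags used to drop spots and dim probes are scores of 0 or 1 per the file headers. The value table the authors deposited is on a log2 scale. Its columns followed log2 of the processed signal on each array, with medians of 4.31 to 4.32, and its normalisation is not given in the sources used here.

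From log2 of each signal, the 75th percentile of the array's non-control probes was subtracted. Repeated spots were averaged, outlier spots were left out, and probes well above background on at least 2 arrays were kept. The brightest probe stood for a gene. The comparison used limma 3.58.1 (lmFit, then eBayes) under R 4.3.3. Its two-sided p-values were adjusted by Benjamini-Hochberg over all 22497 genes, with a threshold of 0.05. The procedure was tested on simulated data. Differences of other probes of a gene came from the same fit over all tested probes. Plots were drawn with matplotlib 3.10.9.

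The genes and lists were chosen with earlier results of these data known. Values on each array were given for 10 core genes, for the 8 of the 34 with the smallest p and for genes whose probes differed in direction by at least 1, and elsewhere for the 2 genes of a list with the smallest p. They are also given for Actg2 and Vcl, which were added after their values were seen, and other genes of the 34 are given by their difference. Alternatives were quantile, median and cyclic loess scaling, normexp (offset of 50), the deposited values, array weights, other filters, an intensity trend, robust eBayes, averaged probes of a gene, signal level as a block, and each array left out. Promoters are those of RefSeq, and mm9 positions of probes come from the array files. No genome was used.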

Additional observations from a re-analysis of the deposited data

How the results depend on the processing

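Over 17 alternatives the median difference of the 34 genes stayed negative, from -0.54 with median scaling to -0.35 with quantile normalisation, and from -0.57 to -0.37 with 1 array left out. With all 4 arrays kept, the genes below in both arrays labelled knockout numbered 19 with cyclic loess to 30 with median scaling. With 1 array left out, 26 to 32 genes lay below. Those above in both numbered 0 with normexp and with a filter on all 4 arrays, and 1 to 2 with 1 array left out. Over all 22497 genes, 1416 had an unadjusted p under 0.05 in limma in the report. It was 1367 with median scaling, 1499 with averaged probes, 1448 with an intensity trend and 2814 with signal level as a block. With the filter on all 4 arrays it was 1183 of 20085. Of the 34, 3 had such a p in the report, 8 with an intensity trend and 14 with signal level as a block. With median scaling, with the filter on all 4 arrays and with the mean of the probes, 5 of the 34 did. They numbered 2 to 4 with 1 array left out. Normexp called 1 of the 34, Synm at -3.07, and leaving out 1 array called 0 to 1, Synm at -3.62 and -3.37. Over all genes, limma called 8 with quantile normalisation, 7 with median scaling, 8 with cyclic loess, 22 with normexp, 8 with the deposited values, 8 with no filter on dim probes, 5 with an intensity trend, 2 with array weights, and 0 to 371 with 1 array left out. Those 371 were called without wild type replicate 2, and 260 without wild type replicate 1. Of the 16 genes that were core genes or among the 8 with the smallest p, 15 kept their sign under all alternatives run. Myl9 turned to 0.0141 in the deposited values and ranged from -0.45 to 0.12 with 1 array left out. Outside these 16, Hspb6 turned to 0.03 without wild type replicate 1. Ppp1r12b was positive in 6 of 18 settings, up to 0.67 without wild type replicate 1. The cause of these changes was not tested. Pln could not be fitted with the filter on all 4 arrays. No paired analysis was possible because the labels' numbers (2 and 3 against 4 and 5) are not shared between groups. The block on signal level groups arrays by their brightness, and nothing in the labels pairs them that way.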
